A study of Rattus norvegicus with 6 samples.

Results

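The genes of the replicative helicase considered here encode the MCM hexamer subunits Mcm2, Mcm3, Mcm4, Mcm5, Mcm6 and Mcm7, the helicase activator Mcm10 and the GINS subunits Gins1, Gins2 and Gins3. These 10 genes were taken by name, as the members of one protein machine, with earlier results of these data already known. For 7 of them (Mcm2, Mcm6, Mcm7, Mcm10, Gins1, Gins2 and Gins3) a probe carried an mRNA accession that matched the rat symbol, and all 7 passed the filter on dim probes. Mcm3, Mcm4 and Mcm5 had no matched probe and their levels were not analysed here. The 7 measured genes stood among 9998 protein-coding genes tested in the series, each represented by its brightest probe. Each of the 7 had 1 matched probe, printed as 1 spot on the array. The probes' target transcripts are NM_001107873.2 (Mcm2), NM_017287.1 (Mcm6), NM_001004203.3 (Mcm7), NM_001107366.1 (Mcm10), NM_001109207.2 (Gins1), NM_001106190.1 (Gins2) and NM_001107408.1 (Gins3), as the files give them.

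The cells were H9c2, a myoblast line from embryonic rat heart used as a model of heart muscle, and all 6 samples came from this 1 line. The 3 control samples were kept at normal oxygen. The 3 hypoxia/reoxygenation (H/R) samples spent 1 h at 1% oxygen with 5% carbon dioxide and 94% nitrogen, then 3 h at normal oxygen. The labels put the H/R cells in medium without serum and glucose and the stock culture in medium with 10% serum and glucose at 4500 mg/L. They do not state the medium of the controls during the experiment, so oxygen and medium cannot be told apart. RNA was depleted of ribosomal RNA, labelled with Cy3 by random priming and read on 1-colour Agilent arrays of mRNA and lncRNA probes. One protocol sentence names the cortex of a mouse as the RNA source, in conflict with the other labels, which give the rat line.

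MCM2 to MCM7 form the ring-shaped motor that unwinds DNA ahead of the replication fork. The ring is loaded onto origins before S phase by the origin recognition complex with CDC6 and CDT1, and stays inactive until CDC45 and the GINS complex bind it and MCM10 helps to start unwinding. Transcription of many of these genes rises in proliferating cells when E2F factors are released from the retinoblastoma proteins, and falls when cells leave the cycle.

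In both groups the files of replicates 2 and 3 carried the same slide position in different scans. The series' design text speaks of 3 independent experiments per group. The median log2 difference per spot was 0.0225 between these files in control and 0.0228 in H/R, while any other pair from one group gave 0.121 to 0.156. Each such pair also shared 36 spots flagged for uneven background. They differed by less than the noise between arrays, so they were averaged and counted as 1 sample (n = 2 arrays per group). No label links a file to its own culture, and p-values here measure the spread between arrays, which may be technical. All 6 scans carried 1 slide number, with control at positions 1 and 2 and H/R at positions 3 and 4. Slide position and treatment therefore cannot be told apart. Of the 42136 non-control spots 58.4% to 71.1% were well above background in a scan, and 0 were saturated. Levels are given as multiples of the 75th percentile of the array's probes, and differences as log2 of H/R minus control with the SE of limma, which moderates each probe's spread with 2 residual and 2.86 prior degrees of freedom. Of the 9998 genes tested, 961 (9.61%) were lower and 1617 (16.2%) higher in H/R (limma, adjusted p below 0.05 by Benjamini-Hochberg over all 15899 probes tested), and the median change of these genes was 0.07. Over all probes 1411 were lower and 2358 higher, and with arrays scaled to their median instead 2253 were lower and 1566 higher. An exact permutation test of 2 arrays against 2 cannot give a two-sided p below 0.333, so single genes rest on the fit across all probes. In bulk RNA, fewer cells in the cycle and less of an mRNA per cell cannot be told apart.

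All 7 measured helicase genes were lower in H/R, and all 7 passed the threshold, against 9.61% of protein-coding genes called lower. Their signal in H/R was between 0.504 and 0.710 of that in control, and the median change was -0.64. For each of the 7 every H/R scan lay below every control scan, which was also so for 27.9% of the genes tested. Before any scaling between arrays the same separation held for all 7, against 15.6% of the genes tested. No measured member was higher in H/R.

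Mcm2, a hexamer subunit that also carries histones at the fork, stood at 13.5, 14.2 and 14.3 times the 75th percentile in control replicates 1 to 3 and at 8.55, 7.75 and 7.56 times in H/R replicates 1 to 3. The groups were well apart, and it fell by 0.78 ± 0.11 (SE, n = 2 arrays per group; adjusted p = 0.0113, limma) to 0.583 of control. Mcm6, another subunit of the ring, stood at 12.6, 11.6 and 11.3 times in the control scans and at 6.93, 8.26 and 8.16 times in the H/R scans. Its lowest values came from H/R array 1, whose level lay below that of both scans of H/R array 2. It fell by 0.67 ± 0.13 to 0.629 of control (adjusted p = 0.0244, limma). Mcm7, whose subunit sits beside MCM4 in the ring's active core, stood at 24.6, 26.9 and 26.7 times in control and at 18.8, 17.7 and 17.6 times in H/R. Its change was the smallest of the 7 in fitted size, a fall by 0.49 ± 0.10 to 0.710 of control (adjusted p = 0.0299, limma).

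Mcm10, which encodes the factor that binds the assembled helicase and helps it to fire, stood at 0.445, 0.398 and 0.415 times the 75th percentile in control and at 0.242, 0.307 and 0.308 times in H/R. The groups did not overlap, but the H/R arrays lay apart: array 1 minus array 2 was -0.35 on the log2 scale, while the median size of this difference over all probes was 0.117. Mcm10 fell by 0.64 ± 0.15 to 0.641 of control, with the largest adjusted p of the members (0.0395, limma). Mcm6 showed the same order, with -0.25 between the H/R arrays, and in both genes control array 1 lay above control array 2 by 0.13. In Mcm2, Mcm7, Gins1 and Gins2 the order was the opposite in both groups. Gins3 also had control array 1 below control array 2, while its H/R arrays differed by 0.002.

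The GINS genes encode subunits of the small complex that clamps CDC45 to the MCM ring. Gins1 stood at 4.59, 5.16 and 5.12 times the 75th percentile in control and at 3.28, 3.15 and 3.22 times in H/R, and fell by 0.59 ± 0.10 to 0.665 of control (adjusted p = 0.0212, limma). Gins3 stood at 1.74, 1.97 and 1.94 times in control and at 1.23, 1.24 and 1.22 times in H/R, and fell by 0.59 ± 0.11 to 0.666 of control (adjusted p = 0.0215, limma). These genes were nearly alike in size of change, and their H/R scans lay close together. Gins2 stood at 0.0987, 0.109 and 0.105 times in control and at 0.0534, 0.050 and 0.0506 times in H/R. It fell by 0.99 ± 0.10 to 0.504 of control (adjusted p = 0.00600, limma), the largest fitted fall of the 7. Gins2 was well above background in all 6 scans, yet its processed signal was 218 to 242 units in control and 94.4 to 133 units in H/R. After normexp background correction its change was -0.09 ± 0.62 and that of Mcm10 -0.24 ± 0.14, while the other 5 members gave -0.87 to -0.55.

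**Figure D1:**
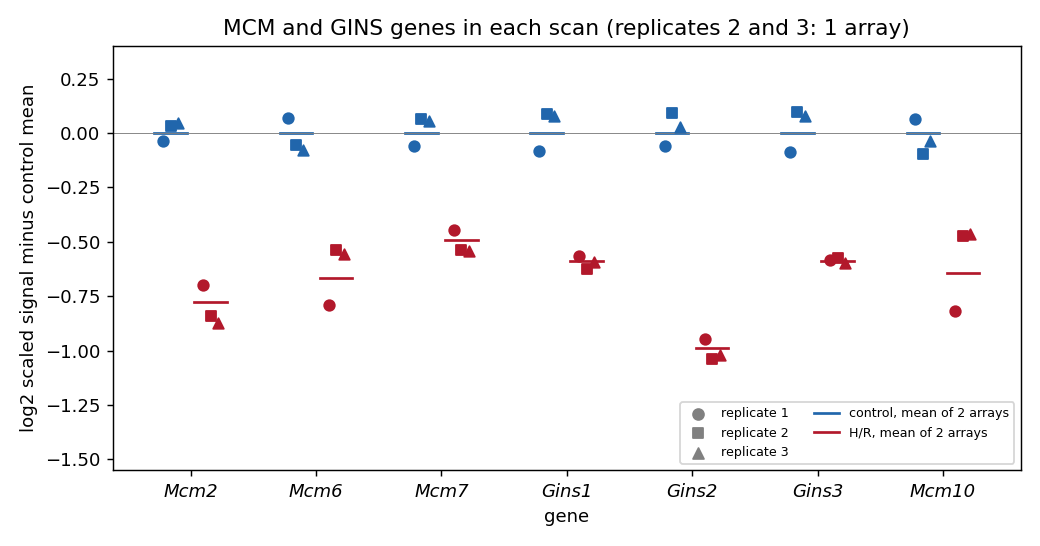
Log2 scaled signal of each of the 7 measured MCM and GINS genes (horizontal axis), minus that gene's control mean (vertical axis, log2 units), in each scan. Blue marks are control and red marks H/R, symbols give the replicate (2 and 3 are 1 array) and bars the mean of 2 arrays; each red mark lies below each blue mark of its gene.

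The 95% intervals of the 7 changes all lay below 0. That of Gins2 ran from -1.25 to -0.73 and that of Mcm7 from -0.76 to -0.23, so the intervals of the largest and the smallest fall overlapped. Differences in size between members were not tested. Taking any H/R array against any control array, the change of Gins2 ran from -1.09 to -0.89, that of Mcm2 from -0.90 to -0.66 and that of Mcm7 from -0.60 to -0.39. Mcm10 and Mcm6 spread most, from -0.88 to -0.40 and from -0.86 to -0.48. Among the 9998 genes tested 2.21% had a lower change than Gins2, 4.03% than Mcm2 and 9.83% than Mcm7, with the other members between these.

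With 1 of the 4 arrays left out all 7 changes stayed below 0, but most calls were lost. Gins2 was called under each of these. With H/R array 2 removed it was the only one called, and Mcm2 changed by -0.70 ± 0.14 (adjusted p = 0.0701, limma; over all its alternatives up to 0.286). With H/R array 1 removed, and likewise with control array 2 removed, Mcm2 and Gins2 were called. With control array 1 removed, Mcm2, Gins1, Gins2 and Gins3 were called, while Mcm6 (-0.60), Mcm7 (-0.55) and Mcm10 (-0.58) were not. Each of these fits has 1 array in a group, which is taken to vary like the others. All 7 calls were also lost with other choices of processing, namely normexp background correction (5 of 7 at an unadjusted p under 0.05, limma), no filter on dim probes (7 of 7) and an ordinary test without limma's moderation (6 of 7).

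**Figure D2:**
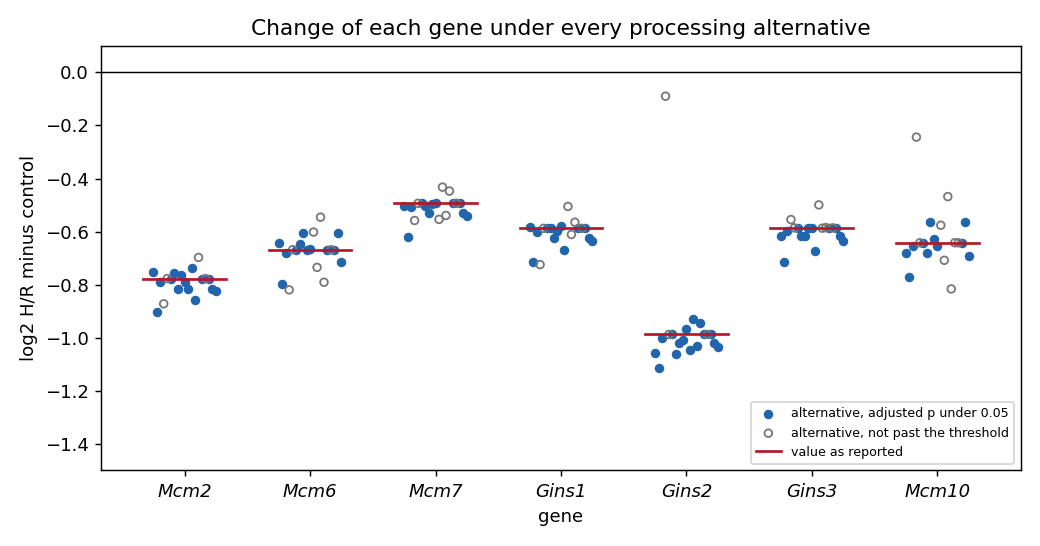
Change of each measured MCM and GINS gene (log2 H/R minus control, vertical axis) under each of 19 processing alternatives (points, filled where the adjusted p is under 0.05) with the value as reported (red line). All points lie below 0, and those of alternatives that alter only the spread or the probes tested lie on the red line. The 2 points far above their red line, for Gins2 (-0.09) and Mcm10 (-0.24), are those after normexp background correction.

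The partners of the helicase fell with it. Of 10 partner and accessory genes listed, 7 had a matched probe and were tested. Of these, 7 were lower and 0 higher, against 9.61% lower and 16.2% higher of all protein-coding genes tested. The median change of the 7 was -0.67. After normexp background correction 0 of these 7 were called (6 were lower at an unadjusted p under 0.05, limma), and likewise 0 genes in each of the other 5 lists described below. Cdc45, which encodes the third part of the active helicase beside the MCM ring and GINS, fell by 1.16 ± 0.11 (adjusted p = 0.00514, limma). Gins4, the GINS subunit outside the list of members, fell by 0.67 ± 0.12 to 0.630 of control (adjusted p = 0.0224, limma), close to the values of Gins1 and Gins3. The replication fork protection genes Timeless and Tipin changed by -1.33 ± 0.13 and -0.62 ± 0.09. Mcm8, which encodes a related helicase used in DNA repair, changed by -0.84 ± 0.12, and Mcmbp, which encodes an MCM-binding protein, by -0.61 ± 0.09 (adjusted p at most 0.0134, limma). Mcm8 was dimmer than Gins2, with a mean log2 scaled signal of -3.76 in control and -4.60 in H/R (Gins2: -3.28 and -4.27). Wdhd1, which encodes the protein that ties the helicase to DNA polymerase alpha, fell by 0.66 ± 0.15 (adjusted p = 0.0369, limma).

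**Figure D3:**
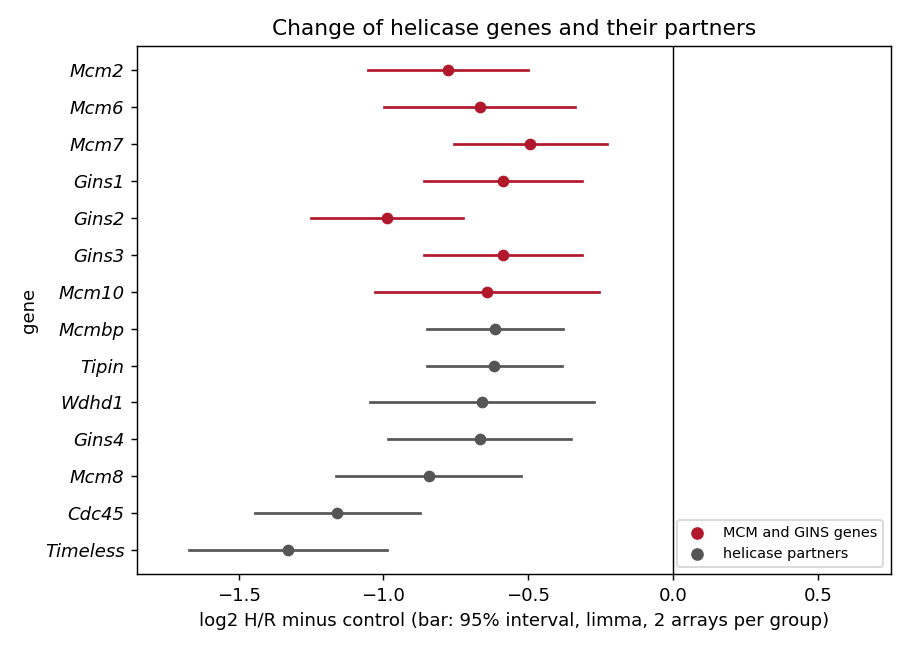
Log2 H/R minus control (horizontal axis) with 95% intervals from limma (2 arrays per group) for the 7 measured MCM and GINS genes (red) and 7 helicase partner genes (grey), 1 gene per line. All 14 intervals lie below 0, and the intervals of the members overlap each other.

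The genes that load the MCM ring split within their list. Of 9 tested, 5 were lower and 0 higher, against 9.61% lower and 16.2% higher of all protein-coding genes tested. The list's median was -0.99. Orc1, which encodes the largest subunit of the origin recognition complex, changed by -1.44 ± 0.10, and Orc6 by -1.07 ± 0.12. The loader genes Cdc6 and Cdt1 changed by -1.35 ± 0.11 and -0.99 ± 0.11, and Gmnn, which encodes the CDT1 inhibitor geminin, by -1.06 ± 0.11 (adjusted p at most 0.00689 for these 5, limma). The other subunits did not pass, with changes of -0.11 for Orc2, 0.24 for Orc3, 0.11 for Orc4 and 0.03 for Orc5. In the list of factors that fire the loaded ring 2 of 4 tested genes were lower and 0 higher. Cdc7, which encodes the kinase that phosphorylates MCM subunits, changed by -0.96 ± 0.10, and Donson, which encodes a helicase assembly factor, by -0.96 ± 0.10 (adjusted p at most 0.00576, limma), while Mtbp (-0.36) and Recql4 (-0.28) did not pass.

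Downstream of the helicase, 10 of 21 polymerase, clamp and fork genes tested were lower and 0 higher, with a median of -0.47. The flap nuclease gene Fen1 changed by -0.93 ± 0.11, Rpa2, a subunit of the single-strand binding protein, by -0.80 ± 0.10, the polymerase gene Pole by -0.61 ± 0.10, the clamp loader gene Rfc2 by -0.63 ± 0.11 and the clamp gene Pcna by -0.61 ± 0.10 (adjusted p at most 0.0189, limma). Upstream, in the list of E2F and G1/S genes 7 of 11 tested were lower and 0 higher, with a median of -0.71. The cyclin genes Ccne2 and Ccnd1 changed by -1.44 ± 0.14 and -1.36 ± 0.14, and the E2F genes E2f1 and E2f7 by -0.92 ± 0.10 and -0.87 ± 0.09 (adjusted p at most 0.00652, limma). In the mitosis list the median was -0.16. Of its 11 tested genes 2 were lower and 0 higher, against 9.61% lower and 16.2% higher of all protein-coding genes tested. The 2 lower genes were Aurkb (fell by 0.64 ± 0.09) and Ccna2 (fell by 0.47 ± 0.09), while the mitotic kinase gene Cdk1 (-0.25) and Plk1 (-0.16) did not pass. The difference between the mitosis list and the helicase genes was not tested. At an unadjusted p under 0.05 (limma) 1 mitosis gene, Aurka (0.43), and 1 gene of the G1/S list, the kinase gene Cdk4 (0.29), were higher, and 0 of the genes in the partner, licensing, firing and polymerase lists. Aurka was dim, with a mean log2 scaled signal of -5.92 in control and -5.49 in H/R, below that of Gins2 (-3.28 and -4.27).

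**Figure D4:**
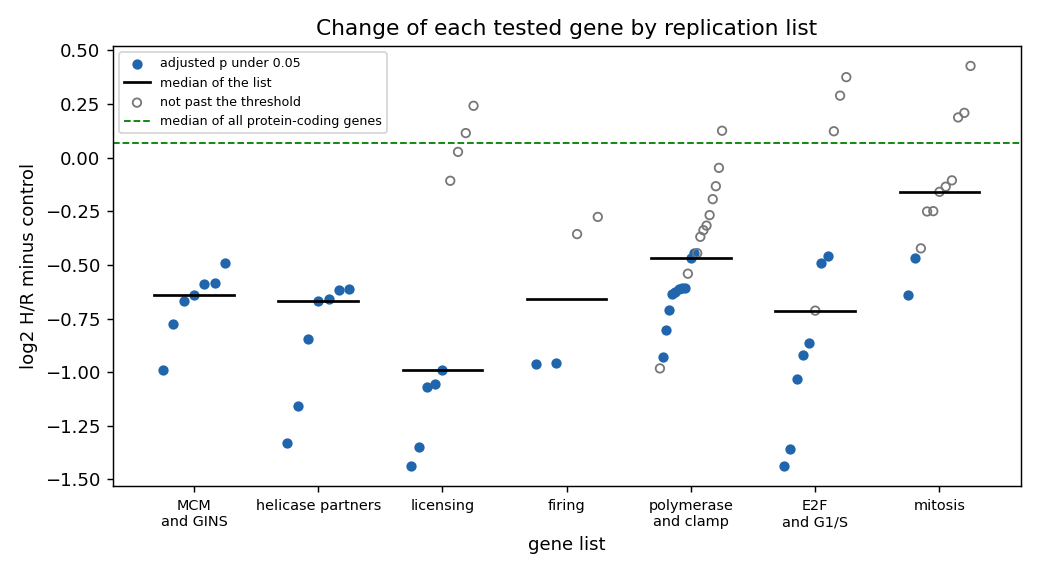
Log2 H/R minus control (vertical axis) of each tested gene in the MCM and GINS set and 6 other lists (horizontal axis), filled where the adjusted p is under 0.05, with each list's median (black bar) and the median of all protein-coding genes (green dashed line, 0.07). The medians are -0.64 for MCM and GINS genes, -0.99 for licensing genes and -0.16 for mitosis genes.

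Markers of the labelled cell type were checked in the same arrays. Of 15 muscle markers with a probe, 14 were well above background in all 6 scans, among them Myod1, Myog, Cdh15, Tnnt2 and Des; Chrna1 was so in the H/R scans and in 0 of 3 control scans. Of these 15 markers 4 rose (Tnnt2, Myh3, Tnnt1 and Chrna1) and 2 fell (Myod1 and Nppb). Among all protein-coding genes tested 16.2% were called higher and 9.61% lower. Chrna1 passed the filter through its H/R scans alone, so its rise is not independent of the filter. The summed signal of the muscle markers was 42.2 to 48.6 in control and 50.8 to 55.7 in H/R, in multiples of the 75th percentile. Vim, which did not pass, weighs most in this sum, with a mean log2 scaled signal of 3.95 in control and 4.35 in H/R. Among neural markers, Rbfox3, Stmn2, Aqp4 and Slc17a7 were not well above background in any scan and Syt1 was so in 1; Gfap, Mbp and Mog were in all 6, and 0 of these 3 passed (limma; 1 was higher at an unadjusted p under 0.05). Of 4 endothelial markers Pecam1 and Cdh5 were not well above background in any scan, Tek rose by 1.11 ± 0.13, and the sum was 0.0689 to 0.0732 in control and 0.119 to 0.140 in H/R. Of 8 leukocyte markers 0 of the 4 tested passed (limma; 2 were higher at an unadjusted p under 0.05), Ptprc, Adgre1 and Itgam were not well above background in any scan, and the sum was 0.568 to 0.721 in control and 0.682 to 0.716 in H/R. Of 5 fibroblast markers Lum and Dcn rose, while Col3a1 (0.16), Pdgfra (0.58) and Thy1 (-0.73) did not pass. The sum of the 5 was 29.0 to 33.4 in control and 33.8 to 36.1 in H/R. It mainly reflects Col3a1, whose mean log2 scaled signal in control was 4.94, against -3.36 for Lum and -3.19 for Dcn. The part of any of these lists in the fall of the helicase genes was not tested.

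Since the members fell together, their promoter windows were read from a RefSeq table of the GRCr8 assembly. A window there holds 250 bases before and 50 bases after a start, and a gene can have several windows, as Topbp1 does. For members, gene lists and tested genes only the first window of a symbol was used. Shares over the whole table count every window. A window was matched by symbol for 9 of the 10 members, Mcm3 and Mcm5 among them. Each was searched on both strands for the E2F motif, spelled TTTCCCGC, TTTCGCGC, TTTGCCGC or TTTGGCGC, for the CCAAT box and for the CHR motif TTTGAA. Overlapping matches on opposite strands were counted separately. A match of letters is a description and not a bound site.

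The E2F letters were in 7 of 9 member windows, and in 5 of the 7 windows of measured members (Mcm2, Mcm6, Mcm7, Gins1 and Gins3). They were in 2.1% of all 33469 windows of the table and in 3.8% of the 8238 windows of protein-coding genes tested here. In the other lists, genes without a probe included, they were in 4 of 6 licensing windows and 5 of 9 helicase partner windows. The E2F and G1/S list had 4 of 10, polymerase 8 of 24, firing 1 of 5 and mitosis 1 of 17. Gins2 and Mcm10, the measured members without the E2F letters, fell by 0.99 and by 0.64, and the 5 with them changed by -0.78 to -0.49. Only exact spellings were counted, so near matches, such as TTTGGCGG in the Mcm10 window, were left out. Gins2 and Mcm10 also had the lowest signal of the measured members, and changed by -0.09 and -0.24 after normexp background correction. A link between the letters and the size of a fall was not tested. Among genes called lower 54 of 779 windows held the letters, and among genes called higher 36 of 1303. The CCAAT letters were in 8 of 9 member windows, against 37.5% of all windows, and the CHR letters in 2 of 9, against 18.3%.

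In 4 members the E2F letters occurred as a pair on opposite strands and overlapping by 4 bases, which makes 1 element of 12 bases. The element is an exact inverted repeat in Mcm2 and Gins1. In Mcm5 and Mcm6 it is an inexact repeat, with 1 mismatched pair of bases. This arrangement of overlapping matches, exact or not, was looked for in the whole table after it was seen in the members. It was present in 6 of 33469 windows, of which 4 belonged to Mcm2, Mcm5, Mcm6 and Gins1. The other two windows both carry the symbol Topbp1, a gene of the firing list without a matched probe here. The repeats are shown because few other windows of the table held one.
Mcm2: TTTCGCGCGAAA
Mcm5: TTTCGCGCCAAA
Mcm6: TTTGGCGCGAAA
Gins1: TTTGGCGCCAAA

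The repeat began at -14 in Mcm2 and at -25 in Gins1, just before the start, and at -139 in Mcm6 and -213 in Mcm5. Of the 3 measured genes that hold it, Mcm2 fell by 0.78, Mcm6 fell by 0.67 and Gins1 fell by 0.59. Mcm7, with its pair of E2F matches apart at -233 and -52, fell by 0.49, and Gins3, with 1 match at -36, fell by 0.59.

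The windows of Mcm2, Mcm7 and Gins2 are printed 5′ to 3′ on the gene's strand with E2F matches in capitals, to show a window with the repeat, one with separate matches and that of the member with the largest fall, which has no match.
Mcm2 (GRCr8, chr4:122918045-122918344, minus strand): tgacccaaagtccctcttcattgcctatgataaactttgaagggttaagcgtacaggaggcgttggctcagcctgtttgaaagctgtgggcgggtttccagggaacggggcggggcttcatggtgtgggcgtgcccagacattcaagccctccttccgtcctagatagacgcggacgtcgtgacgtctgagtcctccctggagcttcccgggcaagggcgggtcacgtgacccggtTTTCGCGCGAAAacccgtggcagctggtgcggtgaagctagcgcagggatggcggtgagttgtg
Mcm7 (GRCr8, chr12:22163129-22163428, minus strand): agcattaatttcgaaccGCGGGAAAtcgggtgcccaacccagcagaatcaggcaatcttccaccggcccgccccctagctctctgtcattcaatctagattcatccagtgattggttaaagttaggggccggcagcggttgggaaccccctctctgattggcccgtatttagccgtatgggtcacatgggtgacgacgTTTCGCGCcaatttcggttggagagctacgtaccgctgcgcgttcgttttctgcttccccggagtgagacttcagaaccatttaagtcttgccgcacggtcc
Gins2 (GRCr8, chr19:65548003-65548302, minus strand): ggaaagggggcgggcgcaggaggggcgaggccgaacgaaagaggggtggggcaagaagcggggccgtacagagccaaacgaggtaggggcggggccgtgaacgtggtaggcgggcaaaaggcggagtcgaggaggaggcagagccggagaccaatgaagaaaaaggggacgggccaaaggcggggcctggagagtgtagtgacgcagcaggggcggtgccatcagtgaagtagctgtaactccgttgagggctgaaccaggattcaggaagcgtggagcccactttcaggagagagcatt

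**Figure D5:**
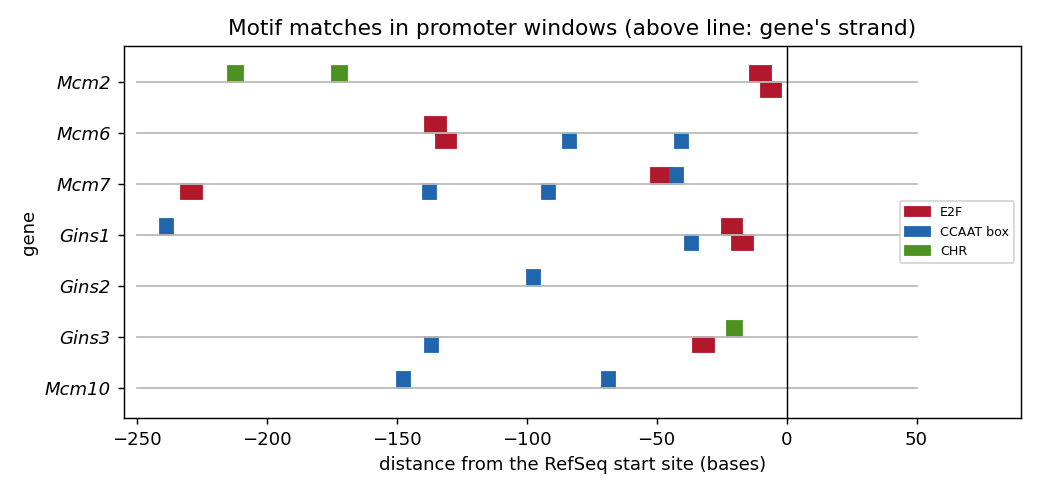
Matches of the E2F (red), CCAAT (blue) and CHR (green) letters in the promoter windows of the 7 measured members, by distance from the RefSeq start site in bases (horizontal axis), 1 gene per line; boxes above a line are on the gene's strand and boxes below it on the other. The overlapping pairs of red boxes in Mcm2, Mcm6 and Gins1 are the inverted repeats (inexact in Mcm6), and Gins2 and Mcm10 have no red box.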

How the data were processed

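Spot intensity was extracted by the authors with Agilent Feature Extraction 11.0.1.1, per the submitters' processing notes. Per the file headers, the processed intensity has background removed within each array, with no normalization across arrays. The deposited files also flag outlier spots and spots well above background. A second deposited table holds log2 values of 16841 probes from the authors, normalized by a method not given in the sources used here; its columns had medians of 9.18 to 9.19 and correlated across probes with log2 of the scanner values at r of 0.9998 or above, so its scale is log2 and genes were not centred.

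Control spots and outliers were dropped, log2 values were averaged over the spots of a probe, and the 75th percentile over the 24578 probes usable in every scan was subtracted. A probe was tested if over 0.5 of its usable spots rose well above background in each of the 3 scans of a group (15899 of 24684 probes). Replicates 2 and 3 were averaged, and groups were compared with lmFit and eBayes of limma 3.58.1 (R 4.3.3), two-sided, with Benjamini-Hochberg adjustment over all probes tested and a threshold of 0.05. The fit was tested on simulated data. Files were read with pandas 2.3.3 (Python 3.11.15) and drawn with matplotlib 3.10.9. Of 15323 probes with an mRNA accession 14274 received a symbol from a RefSeq table of the GRCr8 assembly, which differs from the build of the array design, so only names were taken. Promoter sequences are those of RefSeq for GRCr8.

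Members, lists and tests were chosen with earlier results of these data known. Named genes are all members, the 4 smallest adjusted p of each list and any direction that 5 or fewer genes took, plus Gins4, Mcmbp, Wdhd1 and Pcna and examples that did not pass, and the 5 nearest profiles. The normexp alternative used the median spot intensity, since the files analysed hold no mean spot intensity. The number of arrays limits the precision. One marker of the neural list is not reported here, so no sum is given for that list and its counts cover only the markers named.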

Additional observations from a re-analysis of the deposited data

How the results depend on the processing

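The 7 helicase genes kept a negative change in all 133 values from 19 alternatives, and 92 of these passed the threshold. Of the 19 alternatives, no filter, the stricter filter, the replicate block, the ordinary test and the trend and robust fit repeat the reported changes exactly. They alter only the spread or the probes tested, so their signs add no information. The percentile taken over spots, 1 of the alternatives, was chosen after seeing the data, and it called 7. Quantile, coding-probe and median scaling, the authors' deposited table, the stricter filter and the trend and robust fit also called 7. The fits of 6 scans called 7 too, but they count 2 scans of 1 array as separate samples. With or without the scan block these fits gave the same changes. After normexp correction 0 of 7 were called (5 at an unadjusted p under 0.05 in limma), without the filter on dim probes 0 (7 unadjusted), and by an ordinary test without moderation 0 (6 unadjusted). Leaving out an array or scan gave 1 to 7. Over all probes, where 1411 were lower and 2358 higher, median scaling gave 2253 and 1566, no filter 162 and 432, 6 scans as separate samples 3459 and 4850, these with scan as a block 3055 and 4368, and normexp and the ordinary test 0 both ways (2044 and 4575 at an unadjusted p under 0.05); leaving out an array or scan gave 354 to 1401 lower (377 without H/R array 2) and 631 to 2347 higher (737 without H/R array 1). Median scaling moved the median of all probes from 0.07 to -0.06, normexp to 0.33. After normexp 0 genes were called in the lists of helicase partners, licensing, firing, polymerase, E2F and mitosis (6, 5, 2, 9, 7 and 2 lower at an unadjusted p under 0.05 in limma). The causes were not tested. With the replicate block 6 members were called, Mcm10 not (adjusted p = 0.0507; its alternatives reached 0.533), and 1520 probes were lower and 2366 higher. Array numbers are only shared numbers here: deviations of the arrays numbered 1 and 2 correlated at r = 0.153 across probes between the groups. Alternatives with other probes of a gene gave no value, since each member had 1.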

Other observations

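Among 9991 other protein-coding genes, the 5 whose profile over the 4 arrays lay nearest to the mean profile of the 7 helicase genes were Traip, Paxip1, Ceacam1, Relt and Cdc42se1, by mean absolute distance of centred log2 values (0.00933 to 0.0152). Traip encodes a ubiquitin ligase and changed by -0.69 ± 0.09, Paxip1, which encodes a BRCT-domain protein, by -0.65 ± 0.09, and Ceacam1, which encodes a cell adhesion molecule, by -0.65 ± 0.09. Relt, a TNF receptor family gene, changed by -0.69 ± 0.09, and Cdc42se1 by -0.68 ± 0.10 (adjusted p at most 0.0123, limma, n = 2 arrays per group). With 4 arrays in 2 groups many genes share such a profile, and nearness is a description.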
